A study of Drosophila melanogaster with 2 samples.

Results

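The genes described here mostly encode the machinery that starts transcription by RNA polymerase II. They cover the subunits of TFIID other than the TATA-binding protein and the other factors named TFII. Factors related to the TATA-binding protein, Mediator with its kinase module, and subunits of the polymerase complete the list. Members were the probe sets whose single gene symbol starts with Taf and a digit, TfII, MED and a digit, or Polr2, together with Trf, Trf2, kto, skd, Cdk8 and CycC. Tbp, the gene of the TATA-binding protein, was left out by the same rule. The rule found 55 probe sets of 53 genes among 10843 genes with a named probe set. A gene table of the Release 6 assembly lists 68 genes under the rule, and the 15 without a probe set of their own were not analysed here.

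RNA came from homozygous mbf1 mutant Drosophila melanogaster and from yw animals, whose mutations in yellow and white alter the colour of the body and the eyes. Both were labelled as embryos and were kept at 25 °C for 16 h after egg laying. The allele of mbf1, the number of embryos pooled and whether the mutants also carry yellow and white are details not stated in the labels. Each genotype was hybridised to 1 Affymetrix array, so there were 2 arrays in all, the genotypes could not be compared by a test, and no value carries a replicate error.

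At a promoter, TFIID recognises core DNA through the TATA-binding protein and its associated factors, the TAFs, and TFIIA and TFIIB stabilise it there. TFIIF brings in the polymerase, TFIIE and TFIIH open the DNA, and Mediator carries signals from activators bound at enhancers. MBF1, multiprotein bridging factor 1, is a coactivator that links DNA-binding activators to the TATA-binding protein. The values below give the transcript levels of the machinery's own genes in mutants of that bridge and in yw animals.

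The deposited intensities were scaled so that the bulk of bright probe sets had the same level on the mbf1 and the yw array, which removed a difference of 1.47-fold. A floor was then set at a signal of 17.7, the 40th percentile of the scaled values of both arrays pooled. A gene above it on at least 1 array is called measured, and for a gene under it on the yw array the ratio to the floor is a lower bound, written as at least N-fold. Probe sets differ in how brightly they bind, so a signal is compared only with the same probe set on the other array. The mbf1 transcript itself had a signal of 22.1 on the mbf1 array and 478.7 on the yw array, 21.7-fold lower.

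Many marker genes of adult organs were bright on both arrays, although both carry the label embryo. Others were under the floor or near it. Of these comr of the testis read 4.97 on the mbf1 array and 6.91 on the yw array, and inaC of the eye read 22.9 on the mbf1 array and 24.0 on the yw array. Planned markers without a probe set of their own, such as ninaE of the eye and wg of the embryo, have no value. Of 12 testis markers, 10 were above the floor on the mbf1 array and also 10 on the yw array, and the median log2 ratio of the 11 measured on at least 1 array was -0.05. All 7 accessory gland markers were above it on both, with a median log2 ratio of -0.13, and so were all 6 adult eye markers, whose median log2 ratio was -0.04, with 4 of 6 below 0. Of 11 embryonic patterning genes, 4 were above the floor on the mbf1 array and 3 on the yw array. The levels below therefore belong to RNA that held these markers, and in such whole-animal RNA fewer cells of a type and less RNA per cell cannot be told apart.

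Of the 53 member genes, 37 exceeded the floor on the mbf1 array and 34 did so on both arrays. The 3 genes measured on the mbf1 array alone were Taf12L, Taf13 and TfIIEalpha. A further 16 members were under the floor on both arrays, and no ratio is given for them. These were Taf1, the scaffold of TFIID, with Taf7, Taf8 and Taf10b, the TFII factor genes TfIIB, TfIIS and TfIIA-S-2, Trf, the Mediator genes MED1, MED11, MED14, MED16, MED20, Cdk8 and skd, and Polr2M. The closest to the floor was skd, at 17.6 on the mbf1 array and 12.1 on the yw array.

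**Figure D1:**
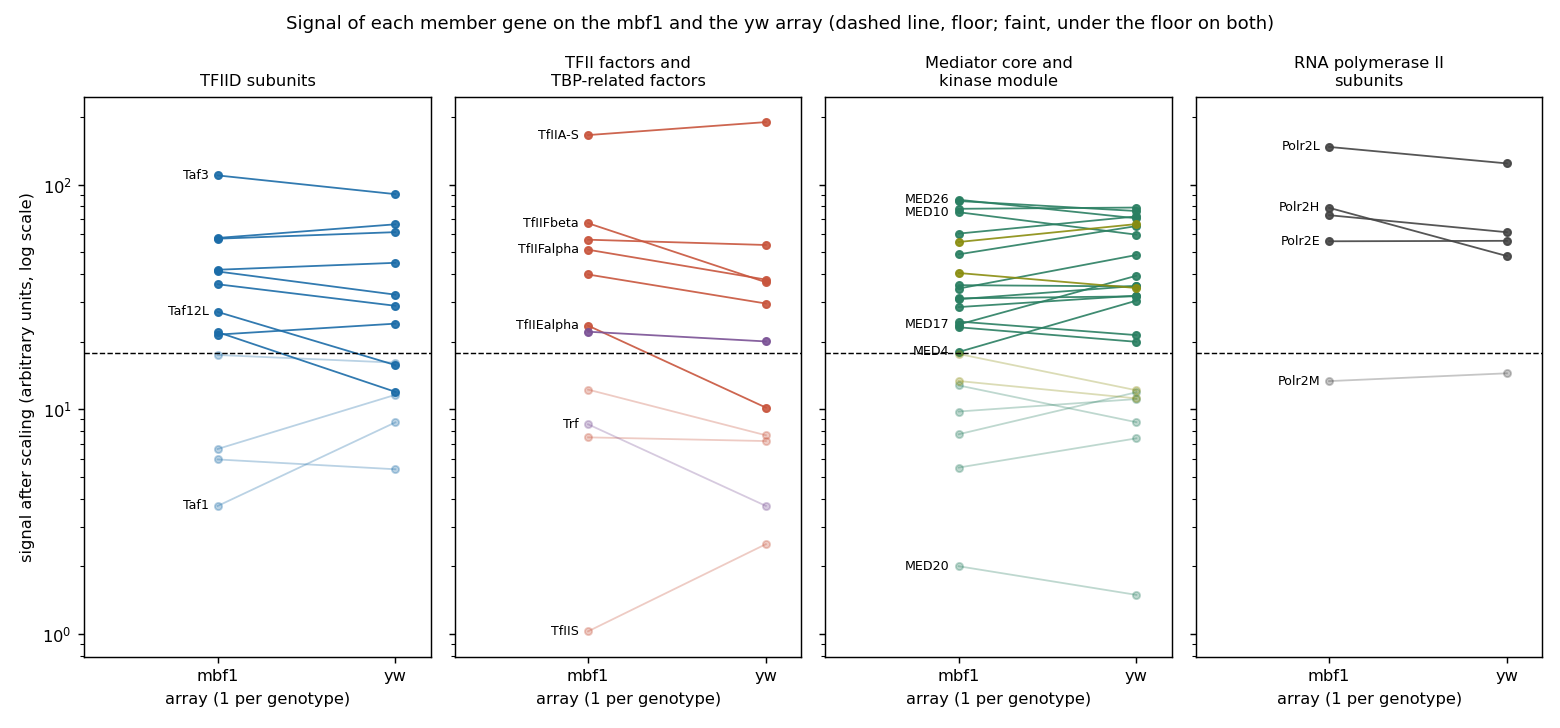
Signal after scaling (log axis, arbitrary units) of each of the 53 member genes on the mbf1 array (left point) and the yw array (right point), joined by a line, with a panel per group. TBP stands for TATA-binding protein. Blue is TFIID, red the TFII factors, purple the factors related to the TATA-binding protein, green the Mediator core, olive its kinase module and black the polymerase; the dashed line is the floor of 17.7, and the 16 faint genes lie under it on both arrays. Most lines are close to level, and those of TfIIFbeta and Polr2H fall most steeply towards the yw array where both points are above the floor.

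None of the 34 members above the floor on both arrays was 2-fold apart, and the other 3, Taf12L, Taf13 and TfIIEalpha, have lower bounds that set no upper limit. With these 3 counted at their bound, as for all genes, 0 of the 37 measured members were higher by 2-fold or more on the mbf1 array, where 1.51% of the 7688 measured genes were, and 0 were lower by as much, where 1.63% were. TfIIEalpha passed 2-fold once its value on the yw array was no longer raised to this floor, with a log2 ratio of 1.21 when the floor was the 25th percentile and of 1.01 with a pseudocount instead. It was then 1 of 46 and 1 of 37 measured members. More genes in all passed 2-fold higher there as well, 281 of 9272 with that floor and 226 of 7688 with the pseudocount. At 1.5-fold, 3 members were higher (TfIIFbeta, Polr2H and Taf12L) against a background of 7.45%, and 2 were lower (MED4 and MED17) against 7.71%. Of the 34 members above the floor on both arrays, 30, or 88.2%, differed by less than 1.5-fold, close to the 86.1% of the 6657 genes above it on both. The median log2 ratio (mbf1 over yw) was 0.14 for the members and -0.00085 for all measured genes, and 21 members had a ratio above 0, or 56.8%, against 49.9% of all measured genes. The 3 members measured on the mbf1 array alone are above 0 by the way they were selected. Among the 34 above the floor on both arrays, 18 were above 0, or 52.9%, against 49.6% of such genes. Their median was 0.05, against -0.0041. Of the 6271 measured genes whose mean signal fell within the range of the members, 8.28% were at least 1.5-fold higher, 7.93% at least 1.5-fold lower and 49.7% above 0, and 1.64% and 1.63% were 2-fold higher and lower. The members' shares lie near these backgrounds, so neither the size nor the direction of their ratios is a result about the set.

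**Figure D2:**
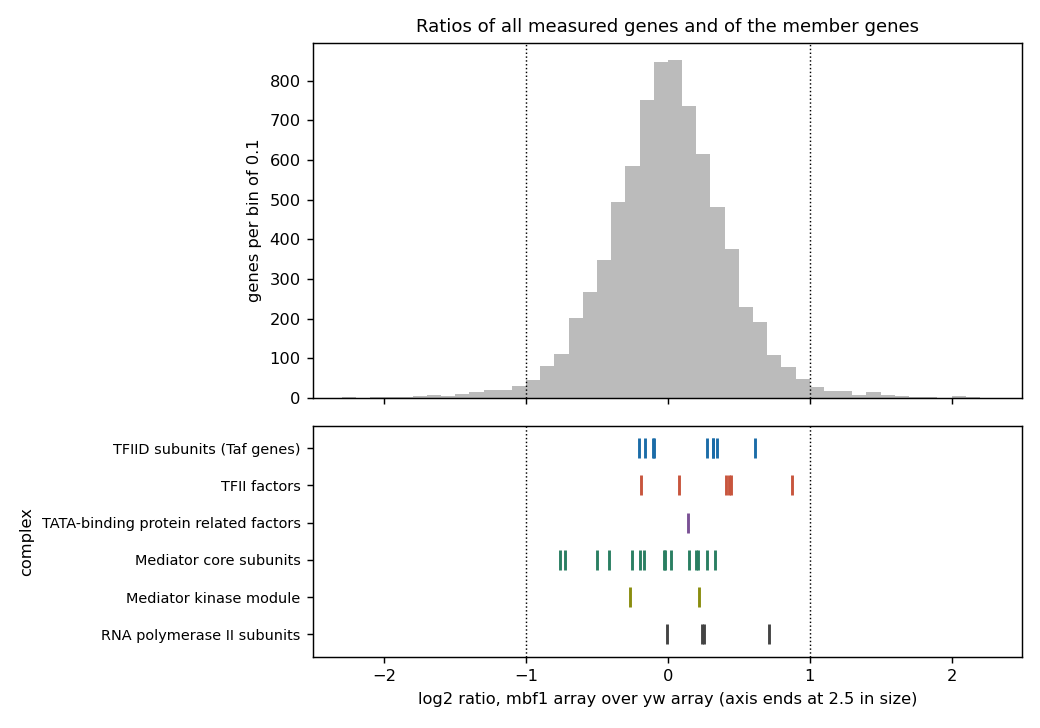
The upper panel counts all measured genes by log2 ratio (mbf1 over yw) in bins of 0.1, and the lower panel marks each of the 37 measured members by a tick in the row of its complex. Dotted lines stand at 2-fold. The ticks run from -0.76 for MED4 to 0.87 for TfIIFbeta, with Taf12L, Taf13 and TfIIEalpha drawn at their lower bounds, and genes with ratios over 2.5 in size are outside the axis.

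The only repeat measurement in these data is a gene read by several probe sets, which leaves out error between arrays. In 224 genes of similar signal, the ratios from a pair of probe sets could be compared. Their disagreement gave an SD of 0.38 for a log2 ratio, and the 95th percentile of the disagreement was 1.04. Members with a repeat were MED26 and Taf4. For MED26, whose human counterpart binds elongation factors, the brighter probe set read 85.6 on the mbf1 array and 70.8 on the yw array, a log2 ratio of 0.27, and the other read 18.6 on the mbf1 array and 22.0 on the yw array, a ratio of -0.25. The brighter probe set of Taf4, the TAF that many activators contact, read 21.5 on the mbf1 array and 24.0 on the yw array, a ratio of -0.16. Its other probe set read 24.4 on the mbf1 array and 17.0 on the yw array, under the floor there, a ratio of at least 0.47. In each of these genes the probe sets pointed opposite ways, so differences of about that size do not settle a direction.

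**Figure D3:**
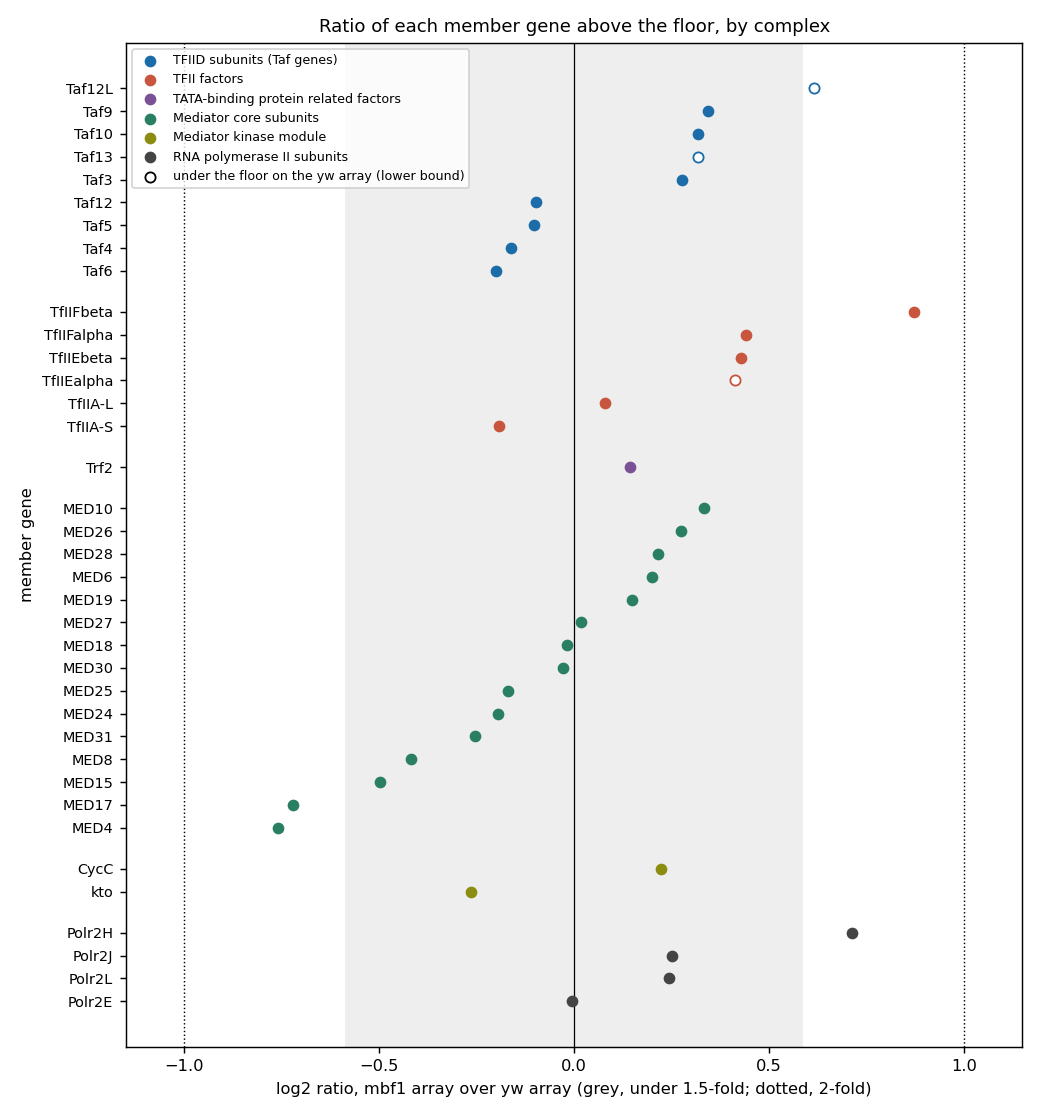
Log2 ratio (mbf1 over yw) for each of the 37 measured member genes, grouped by complex and ordered by ratio within it. Filled points are above the floor on both arrays, the 3 open points are lower bounds, the grey band spans less than 1.5-fold and the dotted lines stand at 2-fold. TfIIFbeta, Polr2H and Taf12L lie right of the band, and MED4 and MED17 lie left of it.

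Among the TFII factors, the genes of TFIIF and TFIIE read higher on the mbf1 array and those of TFIIA lay near 0. TfIIFbeta encodes the small subunit of TFIIF, the factor that escorts the polymerase to the promoter. Its signal was 67.3 on the mbf1 array and 36.8 on the yw array, 1.83-fold higher, at the 97.7th percentile of all measured genes and the largest ratio among the 34 members above the floor on both arrays. TfIIFalpha, the large subunit, read 51.3 on the mbf1 array and 37.8 on the yw array, or 1.36-fold higher. The partners thus had the same direction, with log2 ratios that differed by 0.43.

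TFIIE recruits TFIIH and helps open the DNA. TfIIEbeta, its small subunit, read 39.8 on the mbf1 array and 29.5 on the yw array, a log2 ratio of 0.43. TfIIEalpha, the large subunit, read 23.6 on the mbf1 array and 10.2 on the yw array, where it was under the floor, so it was at least 1.33-fold higher. The genes of TFIIF and TfIIEbeta had log2 ratios between 0.43 and 0.87 and TfIIEalpha one of at least 0.41, where the SD between probe sets was 0.38 and no replicate array gives their error.

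The subunits of TFIIA, which steadies the TATA-binding protein on DNA, went opposite ways by small amounts. TfIIA-L, whose product is cut into the larger subunits, read 56.8 on the mbf1 array and 53.8 on the yw array, a log2 ratio of 0.08. TfIIA-S, the small subunit, read 166.2 on the mbf1 array and 189.8 on the yw array, a log2 ratio of -0.19. Over the 6 measured TFII factors, with TfIIEalpha at its lower bound, the median log2 ratio was 0.42, with 5 of 6 above 0 and 1 of 6 at least 1.5-fold higher. Of all measured genes, 49.9% were above 0 and 7.45% at least 1.5-fold higher. TfIIEalpha is above 0 by the way it was selected, and the 5 factors above the floor on both arrays had a median of 0.43. Counts this small are not a result about the group. TfIIB, which positions the polymerase at the start site, was under the floor at 12.2 on the mbf1 array and 7.65 on the yw array.

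Trf2 encodes a relative of the TATA-binding protein that serves promoters without a TATA box, such as those of ribosomal protein genes. It read 22.1 on the mbf1 array and 20.0 on the yw array, a log2 ratio of 0.14, from a probe set whose suffix marks shared sequence. Trf, the insect paralog that works with Brf at genes of RNA polymerase III, was under the floor at 8.57 on the mbf1 array and 3.71 on the yw array.

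The TFIID subunits were split between small positive and small negative ratios. Of 13 Taf genes 9 were measured, 5 with ratios above 0 and 4 below, from -0.20 to at least 0.62 with a median of 0.28. Taf12L and Taf13, under the floor on the yw array, are above 0 by the way they were selected. The 7 Taf genes above the floor on both arrays had a median of -0.10. Taf3, a subunit with a PHD finger, read 109.9 on the mbf1 array and 90.7 on the yw array, or 1.21-fold higher. Taf10, which pairs with Taf3 through a histone fold, read 36.0 on the mbf1 array and 28.9 on the yw array, or 1.25-fold higher. Taf13, a histone-fold protein that pairs with Taf11, read 22.1 on the mbf1 array and 11.9 on the yw array, at least 1.25-fold higher.

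Taf9 and Taf6 form a histone-fold pair that contacts downstream promoter DNA. Taf9 read 41.0 on the mbf1 array and 32.4 on the yw array, a log2 ratio of 0.34. Taf6 read 57.9 on the mbf1 array and 66.6 on the yw array, a ratio of -0.20. The ratios of these partners differed by 0.54, while Taf12, the histone-fold partner of Taf4, and the WD40 protein gene Taf5 stood at -0.10 and -0.10. Leaving out the genes under the floor on the yw array turned the TFIID median to -0.10, and a floor at the 60th percentile turned it to -0.044, so the group had no settled direction.

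Taf12L, a paralog of Taf12 known from the testis, was the Taf gene past 1.5-fold at its lower bound. It read 27.1 on the mbf1 array and 15.7 on the yw array, under the floor there, and was at least 1.53-fold higher. Its ratio and that of Taf13 are both lower bounds and have no order: with a floor at the 25th percentile, Taf12L was at 0.79 and Taf13 at 0.88. Taf12, its broadly expressed counterpart, read 57.4 on the mbf1 array and 61.4 on the yw array. The 4 other TAF paralogs of the testis, can, sa, mia and nht, were near the floor or under it. Of them sa read 18.0 on the mbf1 array and 5.90 on the yw array, and mia read 17.8 on the mbf1 array and 12.3 on the yw array. Under the floor on both, nht read 9.45 on the mbf1 array and 4.24 on the yw array, and can read 6.39 on the mbf1 array and 9.79 on the yw array. Of the 11 measured testis markers, 3 had ratios above 0, and 2 of the 11 ratios are bounds. Whether testis content has a part in the Taf12L reading was not tested.

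Mediator genes lay on both sides of 0, and the lowest ratios of all members were among them. Of 20 core genes 15 were measured, all on both arrays, with a median log2 ratio of -0.03, 6 above 0 and 9 below. MED4, a subunit of the middle module and the lowest member, read 18.0 on the mbf1 array and 30.4 on the yw array, or 1.69-fold lower, at the 3.71th percentile of all measured genes. Its value on the mbf1 array was just above the floor of 17.7. MED17, the central subunit of the head module that touches the polymerase, read 23.8 on the mbf1 array and 39.3 on the yw array, or 1.65-fold lower.

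The remaining head subunits did not follow MED17 as a block. MED8 read 48.9 on the mbf1 array and 65.4 on the yw array, a log2 ratio of -0.42. MED18 read 78.0 on the mbf1 array and 79.0 on the yw array, a ratio of -0.02, and MED6, which lies next to the polymerase, read 24.6 on the mbf1 array and 21.4 on the yw array, a ratio of 0.20. The 4 measured head genes had a median of -0.22.

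In the middle module, which links the head to the tail, MED4 had the lowest ratio. MED10 read 75.3 on the mbf1 array and 59.9 on the yw array, a log2 ratio of 0.33 and the highest of the core genes. MED19, an attachment point for several activators, read 84.5 on the mbf1 array and 76.3 on the yw array, or 1.11-fold higher. MED31 read 60.5 on the mbf1 array and 72.2 on the yw array, or 1.19-fold lower. With MED26, the 5 measured middle genes had a median of 0.15 and spanned -0.76 to 0.33.

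The scaffold and tail subunits, many of which receive activators, ranged from -0.50 to 0.22 over 6 measured genes with a median of -0.10. MED15, an activator target of the tail, was the lowest at 34.4 on the mbf1 array and 48.6 on the yw array, or 1.41-fold lower. MED24 and MED25 stood at -0.20 and -0.17, MED30 and MED27 at -0.03 and 0.02. MED28, at 23.2 on the mbf1 array and 20.0 on the yw array, had the highest ratio of the tail genes.

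The kinase module binds Mediator reversibly and modulates its contact with the polymerase. It consists of the kinase Cdk8, its cyclin CycC, and the large proteins kohtalo and skuld, which are MED12 and MED13 in other animals. CycC read 40.4 on the mbf1 array and 34.6 on the yw array, a log2 ratio of 0.22. The MED12 gene kto read 55.5 on the mbf1 array and 66.7 on the yw array, a ratio of -0.27. Cdk8, at 13.4 on the mbf1 array and 11.2 on the yw array, and skd were under the floor on both, so the partner of each measured gene could not be compared.

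Of the polymerase, 5 subunit genes had a probe set of their own and 4 were measured, all small subunits. Polr2H, a subunit shared by the nuclear RNA polymerases, read 78.8 on the mbf1 array and 48.1 on the yw array, or 1.64-fold higher, at the 95.6th percentile of all measured genes. Polr2L and Polr2E belong to the shared subunits as well. Polr2L read 147.2 on the mbf1 array and 124.3 on the yw array, a log2 ratio of 0.24, and Polr2E read 55.9 on the mbf1 array and 56.2 on the yw array, a ratio of -0.01. Polr2J, which is particular to RNA polymerase II and helps assemble it, read 73.1 on the mbf1 array and 61.4 on the yw array, a ratio of 0.25. The shared subunits thus ranged from -0.01 to 0.71, and the median of the 4 genes was 0.25. Polr2M, an inhibitor that associates with the polymerase, was under the floor at 13.3 on the mbf1 array and 14.4 on the yw array.

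Genes that work beside these complexes were described in the same way. Of all measured genes, 49.9% were above 0, 1.51% at least 2-fold higher and 1.63% at least 2-fold lower. Counts in lists as short as these are not a result about a list. TFIIH melts the promoter and phosphorylates the polymerase. Of its 9 listed genes 7 were measured, with a median log2 ratio of -0.19 and 6 below 0. The exception was Mat1, which assembles the TFIIH kinase and was 2-fold apart, at 54.7 on the mbf1 array and 24.6 on the yw array, or 2.23-fold higher, from a single probe set. Its partners Cdk7 and CycH stood at -0.43 and -0.19.

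Among 22 genes of pausing and elongation, 16 were measured, 12 with ratios below 0, and the median was -0.09. Of the 13 above the floor on both arrays, 1 was at least 1.5-fold lower and 0 were at least 1.5-fold higher. Of the 6657 genes above it on both, 7.11% were lower and 6.82% higher by as much. The other 3 ratios of the list are bounds. Among these atms, a gene of the Paf1 complex named after its value was seen, read 25.4 on the mbf1 array and 6.24 on the yw array, at least 1.43-fold higher. The lower gene, Ctr9 of the same complex, named after its value was seen, read 36.5 on the mbf1 array and 65.7 on the yw array, or 1.80-fold lower. Of the other bounds, that of Eaf, also named after its value was seen, lay below 0. It read 13.7 on the mbf1 array, under the floor there, and 19.5 on the yw array. The 8 measured of 16 SAGA and ATAC coactivator genes, of which SAGA shares several TAFs with TFIID, had a median of 0.07, with 5 above 0. Of them 6 were above the floor on both arrays, 0 of these past 1.5-fold.

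Of the 4 listed regulators and partners of the TATA-binding protein family 3 were measured. NC2alpha, named after its value was seen, whose product with NC2beta blocks the TATA-binding protein, read 28.7 on the mbf1 array and 7.60 on the yw array, at least 1.62-fold higher, and NC2beta stood at 0.13. Hel89B, the ATPase that removes the TATA-binding protein from DNA, stood at -0.32, and Brf, the partner of Trf, was under the floor on both. Subunits of RNA polymerases I and III had 7 of 13 genes measured, 5 above 0, with a median of 0.43 that is itself a lower bound. Of these 7, 1 lay beneath the floor on the mbf1 array and 3 did on the yw array, so that 4 ratios are bounds. By this selection the 3 are above 0 and the 1 is below it. Among the 3 was Polr3D, at 24.8 on the mbf1 array and 3.47 on the yw array. The 1 was Polr3I, at 12.3 on the mbf1 array and 22.4 on the yw array, and both were named after their values were seen. The 3 above the floor on both differed by less than 1.5-fold. The core promoter factors had 4 of 5 measured, a median of -0.10 and 0 past 1.5-fold.

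**Figure D4:**
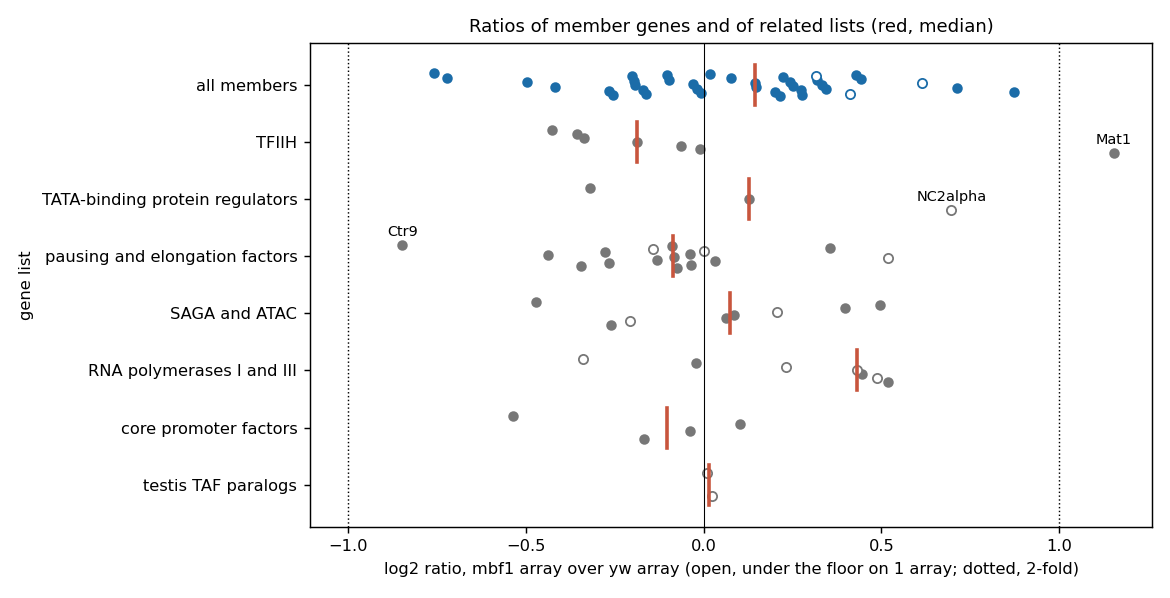
Log2 ratio (mbf1 over yw) for the measured genes of each list, a point per gene, with the 37 members in the top row. Open points are under the floor on 1 array, red bars are medians and dotted lines stand at 2-fold. Mat1, at 1.16, is the point past a dotted line, and open points are drawn at their bounds. The medians run from -0.19 for TFIIH to 0.43 for RNA polymerases I and III, where the median is itself a lower bound.

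The level set between the arrays decided how many members counted as higher. Without scaling, as deposited, the median of all genes was 0.50. There 20 of 39 measured members were at least 1.5-fold higher, against 41.1% of all measured genes. With scaling on hybridization controls the median was 0.19, and 5 of 39 members were higher by as much, against 15.7% of all measured genes. Without scaling, 37 of 39 measured members had ratios above 0, so the negative signs given here for members, other than those of MED4 and MED17, hold relative to the bulk of genes. Relative to the median of all genes, the members' median stood between 0.05 and 0.14 higher in all 11 ways of processing. These ways reprocess the same 2 arrays, and most keep Taf12L, Taf13 and TfIIEalpha, which are above 0 by their selection. The lowest value, 0.05, came from asking for both arrays, so the recurrence gives the set no direction. TfIIFbeta, at 0.82 to 1.42, and Polr2H, at 0.68 to 1.26, stayed at least 1.5-fold higher in all 10 alternatives. MED4, at -0.76 to -0.21, and MED17, at -0.72 to -0.14, kept their sign in every alternative that measured them. Without scaling and on hybridization controls neither was 1.5-fold lower, and raising the floor to the 60th percentile left MED17 at -0.14 and MED4 without a value.

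**Figure D5:**
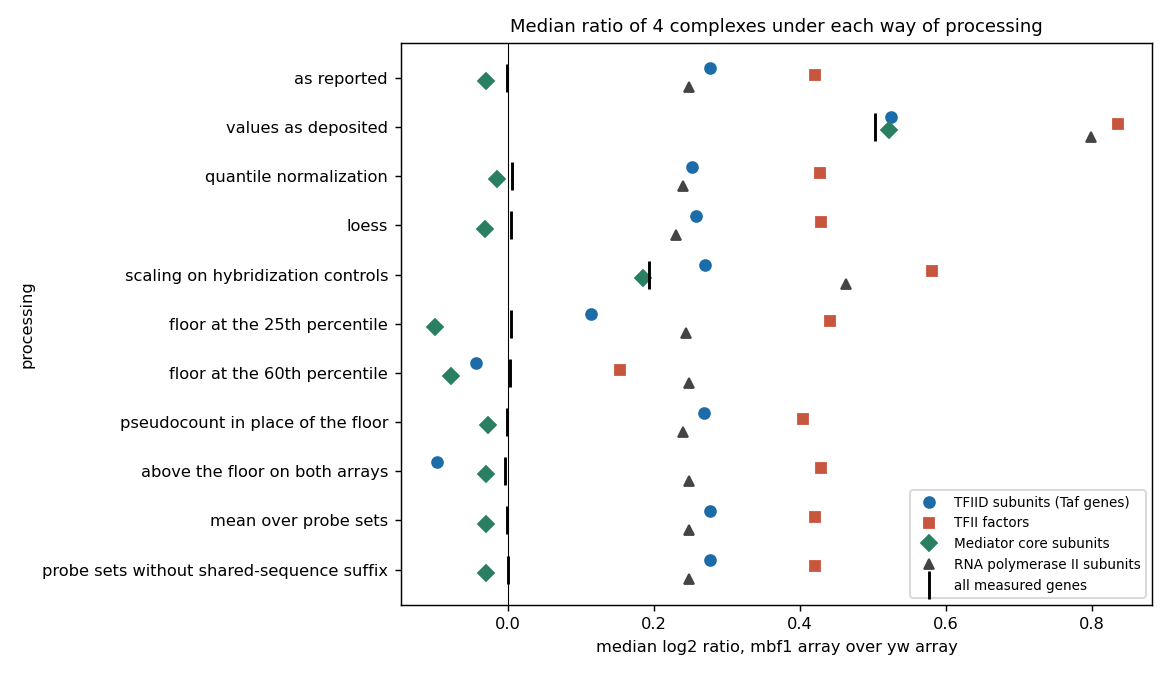
Median log2 ratio (mbf1 over yw) for 4 complexes, a symbol each, with the median of all measured genes as a black bar, in the processing as reported (top row) and in 10 alternatives. TFII factors and polymerase subunits lie right of the bar in each row, Mediator core genes lie within about 0.1 of it, and TFIID lies left of it in 2 rows.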

How the data were processed

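Transcripts of mbf1 and yw animals were read on 1 Affymetrix array each. The deposited table holds linear intensities, a signal for each probe set on each array. Per the submitters' processing notes they come from MAS5, whose version and target level are not given here. The 2% trimmed mean was 88.4 on the mbf1 array and 60.5 on the yw array. Genes were named by GEO's platform annotation; all 53 member identifiers matched the Release 6 gene table, and 0 symbols changed. No genome build is named and no sequence table was used, so neither coordinates nor sequences are given. Detection calls and the 2 files of array settings were not used, and 0 columns of the value table were left unmapped.

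The log2 ratio, mbf1 over yw, was shifted, by lowering the mbf1 array, until its median was 0 over probe sets brighter than their array's median on both arrays, and floored at the 40th percentile. The brightest probe set stood for a gene. With 1 array a genotype no p-values were computed. A list is given by its counts and median beside all measured genes, at 2-fold and 1.5-fold. Members described singly were those at least 1.5-fold apart, with several probe sets, brightest or dimmest of a complex, or of the kinase module and the factors related to the TATA-binding protein, with others of the same complexes beside them. Related genes were named when 2-fold apart, or as stated. Members, lists and thresholds were chosen with earlier results of these data known, and Mediator modules and partner pairs after seeing the values. The steps were tested on simulated data, with changes planted only in bright genes. Those changes were larger than the ratio of any member above the floor on both arrays. The test therefore does not show how well ratios as small as those given here are recovered. Python 3.11.15, pandas 2.3.3 and statsmodels 0.14.6 were used.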

Additional observations from a re-analysis of the deposited data

How the results depend on the processing

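Under 10 alternatives, 316 of 354 single-member ratios moved by less than the robust SD of the 500 genes of nearest signal. Of the 38 that moved, 33 did so without scaling. Where they had a value, 0 of the 5 members past 1.5-fold changed sign. Of these 5, Taf12L had a value in 8 alternatives and MED4 in 9. Taf12L, under the floor on the yw array, was above 0 by its selection, so its sign does not measure stability. Many of the 316 could not move, so that count does not measure stability. Asking for both arrays (34 ratios) or for unshared probe sets (36) only leaves genes out. Averaging probe sets can change MED26 and Taf4 alone, and the lower floor Taf12L, Taf13 and TfIIEalpha alone. As deposited, the medians were 0.60 for all members, 0.53 for TFIID, 0.84 for TFII factors, 0.52 for the Mediator core, 0.29 for its kinase module and 0.80 for the polymerase, with 20 members at least 1.5-fold higher, 2 at least 2-fold higher (TfIIFbeta and Polr2H) and 0 at least 1.5-fold lower, since the whole array shifts by 0.55. On hybridization controls these were 0.29 for all members, 0.58 for TFII factors, 0.18 for the Mediator core, 0.10 for the kinase module and 0.46 for the polymerase, with 5 higher, 1 of them 2-fold (TfIIFbeta), and 0 lower. A floor at the 25th percentile gave 0.11 for TFIID and 0.24 for the kinase module, and 5 members at least 1.5-fold higher, 1 of them 2-fold (TfIIEalpha), as did a pseudocount in place of the floor, with 5 and 1. A floor at the 60th percentile gave -0.044 for TFIID, 0.15 for TFII factors and 0 members lower, and genes above the floor on both arrays gave -0.10 for TFIID, by leaving out or raising dim genes. All genes at least 1.5-fold apart then numbered 3245 higher and 112 lower as deposited, or 41.1% and 1.42% of 7896. On hybridization controls they were 1214 and 265 of 7717, or 15.7% and 3.43%, and with the higher floor 278 and 305 of 5300. With the lower floor they were 997 and 940 of 9272, or 10.8% and 10.1%. With the pseudocount they were 711 and 681 of 7688, or 9.25% and 8.86%, against 573 and 593 as reported. At 2-fold, 801 genes were higher as deposited, 235 on hybridization controls, 281 with the lower floor and 226 with the pseudocount, against 116. Signal over background leaves 16 members without a ratio. No paired analysis was possible because each genotype had 1 array, and no array could be left out.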

Other observations

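Probe sets that the annotation gives to a gene of these complexes and to another gene were outside the comparisons, 4 in all. A probe set of MED23 and CG3700 read 55.5 on the mbf1 array and 38.0 on the yw array, or 1.46-fold higher, and the other probe set of the same genes was under the floor at 2.97 on the mbf1 array and 4.31 on the yw array. The probe set of MED9 and CG42518 read 98.5 on the mbf1 array and 105.3 on the yw array, or 1.07-fold lower, and that of Taf11 and Gdi was under the floor at 4.86 on the mbf1 array and 2.11 on the yw array. Members that neighbour each other in the gene table were Taf10 with Taf10b, and Trf with MED20. Of these 4 genes Taf10 was the only one measured, while Taf10b read 6.65 on the mbf1 array and 11.6 on the yw array.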
